A study of Homo sapiens with 68 samples.

Results

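The sites described here are places on RNA where the hnRNPI antibody gave a peak and the antibodies to 3 other RNA-binding proteins did not. They were chosen by measured overlaps among deposited peak lists. A site is a peak of hnRNPI_50k_noPAGE replicate 1 that shares at least 1 nt on the same strand with a peak of replicate 2, and that shares no nt with a peak of the 50k_noPAGE or 50k_lowRNase libraries of hnRNPA1, hnRNPc and RBFOX2. The replicate 1 list holds 353415 peaks. Of these, 203744 (57.7%) were overlapped in replicate 2 and are called reproducible. Of the reproducible peaks, 108368 (53.2%) had no overlap in the 12 excluding lists and are the sites, out of 15800601 peaks in all 68 lists of the series. The other 95376 reproducible peaks were overlapped by at least 1 of the other proteins and are called shared peaks.

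hnRNPI, better known as PTBP1 or polypyrimidine tract-binding protein, is a nuclear RNA-binding protein that recognises pyrimidine-rich stretches, mostly in introns of newly made transcripts. It is best known for repressing the inclusion of alternative exons, and it also acts on polyadenylation and on RNA in the cytoplasm. hnRNPA1 is a splicing repressor with its own short motif, hnRNPc binds uridine tracts on nascent RNA, and RBFOX2 binds a GCAUG-containing element and promotes or represses exons depending on which side it binds.

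All libraries came from HEK293T, a human embryonic kidney cell line, grown without genetic change or drug, and were made by TLC-CLIP. In this assay, ultraviolet light links proteins to the RNA they touch, the lysate is trimmed with RNase, 1 protein is immunoprecipitated and the RNA fragments attached to it are sequenced. The groups used here hold 2 libraries each. In hnRNPI_50k_noPAGE, RNA from 50000 crosslinked cells at an RNase dose of 0.005 U was sequenced without separating the complexes by polyacrylamide gel electrophoresis (PAGE). hnRNPI_50k_lowRNase kept the gel step at the same cell number and RNase dose. hnRNPI_50k_noPAGE_RecJ omitted the gel and, per the series description and the title, added an adapter removal step with the RecJ exonuclease. noUV_hnRNPI and noUV_noPAGE_hnRNPI are, by their titles, libraries from cells that were not crosslinked, with and without the gel. The same noUV groups exist for the other 3 antibodies, and the labels give 50000 cells and 0.005 U for all noUV libraries. hnRNPc and RBFOX2 also have crosslinked groups of 10000 cells at 0.001 U and of 1000 cells at 0.0001 U. hnRNPA1 and hnRNPc have crosslinked 50k_mediumRNase groups at 0.025 U. hnRNPc also has groups without the gel titled 5k and 500, at 0.005 U. The Background groups, from hnRNPc libraries, are labelled 10000 cells and 0.001 U. No label says that replicates came from separate cultures, so the spread between them may be technical.

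No source used here gives sequencing depth. A list of fewer peaks can cover fewer sites for that reason alone. The crosslinked hnRNPI lists held 294597 to 353415 peaks. The uncrosslinked ones held 18690 and 36809 with the gel and 44086 and 78945 without it. The noUV, 10k and 1k libraries form a separate run of accessions from the 50k libraries, and a batch, if that is what the run marks, cannot be told apart from these groups. 1 excluding list stands apart: hnRNPc_50k_lowRNase replicate 1 holds 3268 peaks against 214849 in replicate 2. Without that list there were 108371 sites. When all crosslinked lists of the other proteins were used to exclude peaks, there were 74894 sites. The number rests on both defining replicates: peaks free of the other proteins numbered 195651 without hnRNPI_50k_noPAGE replicate 2 and 189783 without replicate 1.

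The sites were slightly narrower than the shared peaks and had fewer reads. Both measures were higher at the sites than over the whole replicate 1 list. The median width was 82 nt, with an interquartile range of 59 to 111 nt and extremes of 1 and 441 nt. Shared peaks had a median of 86 nt and all peaks of the replicate 1 list 68 nt. The last number in each peak's name, taken here for its read number, had a median of 17 at the sites and 24 at the shared peaks. Over the whole replicate 1 list it was 12. The middle of a site, marked in the lists by an inner interval of at most 4 nt, lay at a median of 48.6% of the site's width from its lower coordinate. In all, 715 sites (0.66%) were at most 10 nt wide. Because the lists are made gene by gene, 3321 entries repeat a position under a second gene identifier, and 96913 separate footprints remained after overlapping and touching sites were joined.

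Read numbers of the same site agreed closely between the 2 replicates that defined it. Across the 108368 sites, Spearman's rho between the read number in replicate 1 and that of the overlapping peak with the most reads in replicate 2 was 0.812. The interquartile range of the log2 ratio, replicate 2 over replicate 1, ran from -0.36 to 0.47. Sites are not independent of each other and the rule used both lists, so this describes the lists and no test was made. Peak widths over the same sites were also measured in 4 hnRNPI groups that the rule did not use. The median width of the peaks on the sites was 88.0 ± 1.41 nt (SD, n = 2) in hnRNPI_50k_noPAGE_RecJ and 70.0 ± 7.07 nt (SD, n = 2) in hnRNPI_50k_lowRNase. It was 59.0 ± 2.83 nt (SD, n = 2) in noUV_hnRNPI and 73.5 ± 0.71 nt (SD, n = 2) in noUV_noPAGE_hnRNPI. Groups of 2 libraries are too small for an exact permutation test to reach significance, so none was run here or for the values that follow.

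The share of hnRNPI peaks that were free of the other proteins was lower at higher read numbers. Among reproducible peaks with 4 to 7 reads, 68.3% were sites. The share was 53.6% at 16 to 31 reads, 36.6% at 64 to 127 reads and 22.1% at 256 reads or more. This is the share that the rule itself sets, and it depends on how many peaks the 12 excluding lists hold. By protein, hnRNPA1 overlapped 23.6% of the reproducible peaks, hnRNPc 23.5% and RBFOX2 20.4%. Peaks lost to 1 protein alone numbered 21137 for hnRNPA1, 23324 for hnRNPc and 17784 for RBFOX2.

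Being free of another protein's peak did not place a site far from one. The median distance from a site to the nearest peak of the 12 excluding lists was 151 nt. In all, 38.0% of the sites lay within 100 nt of such a peak and 90.9% within 1000 nt. By protein, 23.6% of sites had an hnRNPA1 peak within 100 nt, 14.0% an hnRNPc peak and 10.2% an RBFOX2 peak. At the edge of the rule, 1562 sites lay under 3 nt from a peak of another protein and had a median of 21 reads and 81 nt. On the other side of that edge, 1701 reproducible peaks were excluded by an overlap of 1 to 3 nt, with a median of 21 reads and 80 nt. At the other edge, 1306 sites owed their place to an overlap of 1 to 3 nt with replicate 2, with medians of 10 reads and 48 nt. Just outside it, 1029 peaks free of the other proteins came within 3 nt of a replicate 2 peak, with medians of 10 reads and 51 nt.

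The sites were spread over many genes, with most genes holding a few. They carried 10374 Ensembl gene identifiers, out of 12394 with a reproducible hnRNPI peak, while 2020 genes had reproducible peaks and no site. The median gene with a site held 5 and the mean was 10.4. A single site was found in 2251 genes, 10 or more in 3170 genes and 100 or more in 50 genes. The 100 genes with the most sites held 10.2% of them, and the 1000 genes with the most held 45.9%. Genes are given by identifier, because the files do not pair identifiers with symbols.

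The genes with the most sites carried them over long stretches. ENSG00000189283 had 241 sites among 429 reproducible peaks (56.2%), spread over 1489533 nt of the minus strand of chromosome 3 (hg19). Its sites had a median of 15 reads, and the busiest had 113. ENSG00000158321 followed with 238 sites among 487 peaks (48.9%) over 1190518 nt of the plus strand of chromosome 7, with a median of 20 reads. In these 2 genes, 63.1% and 68.9% of the sites were overlapped in hnRNPI_50k_lowRNase replicate 1, and 0.415% and 0.840% in noUV_hnRNPI replicate 1. In noUV_hnRNPI replicate 2 it was 0.0% and 1.68%, so these values rest on few sites. Over all sites, hnRNPI_50k_lowRNase replicate 1 overlapped 59.4%, and noUV_hnRNPI replicates 1 and 2 overlapped 1.87% and 2.53%. The 6 genes that came next held 172 to 194 sites each. Over all 8 genes the share of reproducible peaks that were sites ran from 38.3% in ENSG00000183098 to 60.0% in ENSG00000169760, on both sides of the 53.2% of all reproducible peaks.

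The share of a gene's hnRNPI peaks that were sites varied widely. Among the 257 genes with at least 100 reproducible peaks, the median share was 51.4%, the interquartile range 43.5 to 63.1% and the extremes 10.7 and 87.8%. The highest share was in ENSG00000229807 on chromosome X, where 108 of 123 peaks were sites. ENSG00000123104 on chromosome 12 came next with 83 of 100. The lowest were ENSG00000243566 on chromosome 7, with 12 of 112 (10.7%), and ENSG00000226381 on chromosome 10, with 21 of 114 (18.4%). These shares come from the overlaps that the rule used and are a description. By chromosome, the share was lowest on chromosomes 22 (40.0%) and 19 (40.6%) among the autosomes and highest on chromosome 4 (60.0%).

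Many sites lay close to another site of the same gene, somewhat fewer than among shared peaks. The median distance from a site to the nearest other site of the same gene was 444 nt, with an interquartile range of 55 to 2353 nt. For shared peaks, measured to the nearest other shared peak, it was 269 nt. For all reproducible peaks, measured to any other of them, it was 129 nt. Within 100 nt of a site lay another in 32.3% of cases, against 36.1% for shared peaks and 45.4% for all reproducible peaks. Within 500 nt the shares were 50.2%, 56.5% and 66.8%. Sites and shared peaks are each a part of the reproducible peaks, and the part of set size in these values was not tested. Part of the close spacing is a single stretch cut into touching peaks, which was the case for 13.6% of the sites and 18.0% of the shared peaks. When peaks under 30 nt apart were merged first in every list, the share of sites with another within 100 nt was 17.6%.

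**Figure D1:**
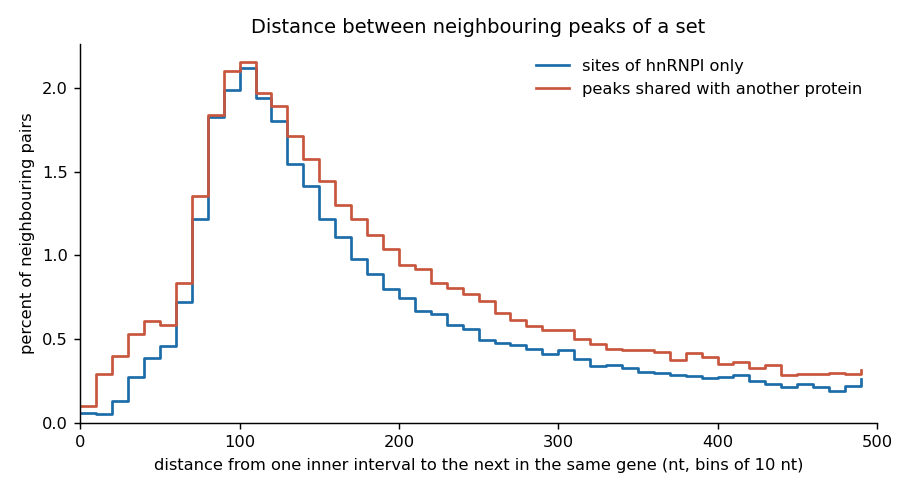
Distance in nt between the inner intervals of neighbouring peaks of the same gene, in bins of 10 nt, as a percent of all neighbouring pairs of the set. Both curves are highest in the bin from 100 to 110 nt, which holds 2.12% of the pairs of sites and 2.16% of the pairs of shared peaks, and the pairs of sites lie lower from there to 500 nt.

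Measured from edge to edge, the fullest bin of 10 nt was 0 to 10 nt, with 8.51% of the pairs of neighbouring sites. Measured between inner intervals, it was 100 to 110 nt, with 2076 pairs (2.12%). Shared peaks had their fullest bin at the same distance. Sites under 100 nt apart were joined into runs. There were 88478 runs, of which 73350 were a single site, 11687 held 2 sites, 2586 held 3, 603 held 4 and 252 held 5 or more. The longest run held 78 sites, and the longest run of shared peaks held 23.

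Most sites were found again in crosslinked hnRNPI lists that the rule did not use. hnRNPI_50k_noPAGE_RecJ replicates 1 and 2 overlapped 77.3% and 76.7% of the sites, a mean of 77.0 ± 0.41% (SD, n = 2). hnRNPI_50k_lowRNase replicates 1 and 2 overlapped 59.4% and 53.5%, a mean of 56.5 ± 4.11% (SD, n = 2). The 2 groups did not overlap, and the lists with RecJ and without the gel held the higher share. Among all reproducible hnRNPI peaks, the background for these counts, the shares were 79.1% and 78.6% with RecJ and 63.0% and 56.1% with the gel. The sites lay below all reproducible peaks in each of the 4 lists, but they also had fewer reads than the shared peaks, with medians of 17 and 24. Among peaks of 16 to 31 reads, sites and shared peaks stood at 68.2% and 67.6% in hnRNPI_50k_lowRNase replicate 1 and at 62.5% and 58.8% in replicate 2. In the RecJ lists they stood at 86.5% and 84.5% in replicate 1 and at 86.2% and 83.9% in replicate 2, so the sites were not lower at that read number. In hnRNPI_50k_lowRNase replicate 1 the sites were lower in every other read class, with 87.7% and 91.1% at 64 to 127 reads. At 64 to 127 reads, replicate 2 stood at 87.5% and 86.1%, and RecJ replicate 1 at 99.5% and 99.2%. At 256 reads or more, sites were lower in both lists with the gel, at 85.4% and 86.3% against 95.2% and 93.3%. Sites moved by 1000 nt along the same strand, which measures how densely a list covers these genes, were overlapped in 12.6% and 12.5% of cases with RecJ and in 11.4% and 9.98% with the gel.

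**Figure D2:**
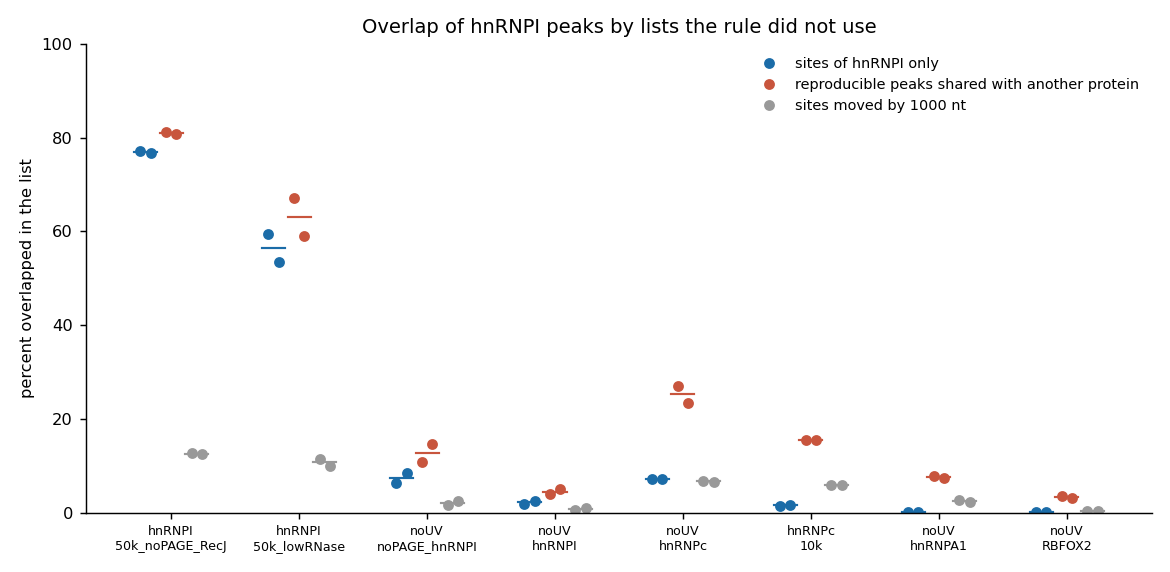
Percent of peaks overlapped by each of 2 libraries (points) and their mean (bars) in 8 groups that the rule did not use, for the sites, the shared peaks and the sites moved by 1000 nt. The sites stand near the shared peaks and far above the moved sites in the crosslinked hnRNPI lists, at 53.5 to 77.3%, and at 0.103 to 8.50% in the lists without crosslinking.

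Over the 4 crosslinked lists that the rule did not use, 38824 sites (35.8%) were overlapped in all 4 and 8198 (7.56%) in none. The sites found in all 4 had a median of 30 reads and 105 nt. Those found in none had a median of 8 reads and 55 nt. Shared peaks were found in all 4 lists in 44.0% of cases and in none in 5.75%. Of the sites, 20555 (19.0%) were in all 4 lists and in none of the 46 lists of the other antibodies that the rule did not use. The same held for 4.42% of the shared peaks, a gap that the choice of sites largely sets.

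Few sites had a peak when crosslinking was omitted. noUV_hnRNPI replicates 1 and 2 overlapped 1.87% and 2.53% of the sites, a mean of 2.20 ± 0.46% (SD, n = 2). Without the gel, noUV_noPAGE_hnRNPI replicates 1 and 2 overlapped 6.27% and 8.50%, a mean of 7.39 ± 1.58% (SD, n = 2). All 4 values lay below every value of the crosslinked hnRNPI lists, and the lists without the gel held more sites than those with it. Among all reproducible hnRNPI peaks the shares were 2.81% and 3.65% with the gel and 8.37% and 11.4% without it. The sites moved by 1000 nt were overlapped in 0.57% and 0.89% of cases with the gel and in 1.61% and 2.44% without it. The uncrosslinked lists are also shorter, by the numbers given above, and the part of list length in these shares was not tested. When at least 50% of the peak had to be overlapped in every comparison, the rule's own included, the set changed to 120319 sites. The mean share of that set in noUV_hnRNPI was 1.39%.

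Sites with few reads were found again least often, in lists with and without crosslinking. In hnRNPI_50k_lowRNase replicate 1 the share was 26.8% for sites of 4 to 7 reads, 68.2% for 16 to 31 reads and 87.7% for 64 to 127 reads, and it did not go higher, at 87.3% in the next class and 85.4% for 256 reads or more. In hnRNPI_50k_noPAGE_RecJ replicate 1 it was 44.0%, 86.5% and 99.5% for sites of 4 to 7, 16 to 31 and 64 to 127 reads. In noUV_hnRNPI replicate 1 it was 0.232%, 1.28% and 7.40% for the same classes. For the 335 sites with 256 reads or more, noUV_hnRNPI replicates 1 and 2 overlapped 48.7% and 55.5%, and noUV_noPAGE_hnRNPI replicates 1 and 2 overlapped 74.6% and 82.4%. Shared peaks of that read class stood close to this, at 50.6% and 53.1% with the gel and 76.4% and 82.6% without it. The gene ENSG00000229807 holds 108 of these 335 sites. For the 227 others, the shares were 30.4% and 40.1% with the gel and 66.1% and 77.5% without it. Shared peaks outside that gene were higher, at 50.5% and 53.1% with the gel and 76.3% and 82.5% without it.

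**Figure D3:**
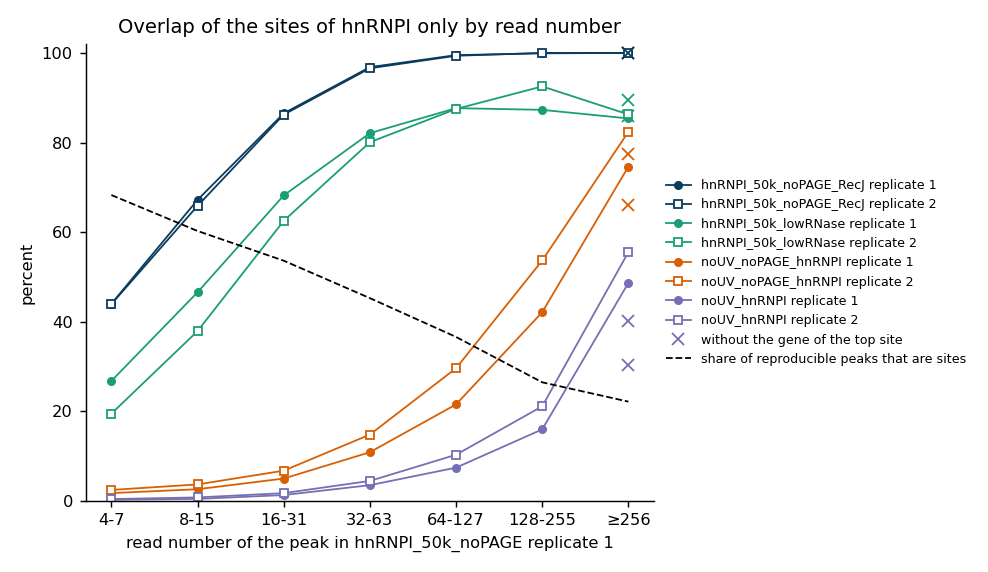
Percent of sites overlapped in 8 hnRNPI lists that the rule did not use, by the site's read number in hnRNPI_50k_noPAGE replicate 1. Filled and open symbols are replicates 1 and 2, crosses show the last bin without ENSG00000229807, and the dashed line is the share of reproducible peaks that are sites. The share of sites goes from 68.3% to 22.1%, while the overlap in noUV_hnRNPI replicate 1 goes from 0.232% to 48.7%, or 30.4% without that gene.

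Wider sites and sites in runs were also found again more often. For sites of 30 to 50 nt, hnRNPI_50k_lowRNase replicate 1 overlapped 39.2%, and for those over 150 nt it overlapped 85.2%. Median reads went from 10 to 43 between these width classes, so width and reads moved together. Sites alone in their run were overlapped in 55.3% of cases in that list and sites in runs of 5 or more in 71.8%. The corresponding shares in noUV_hnRNPI replicate 1 were 1.08% and 15.7%, with median reads of 14 and 56. Without ENSG00000229807, which holds the longest run, the shares for runs of 5 or more were 70.5% and 10.2%.

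Lists of the other antibodies that the rule did not use held few of the sites, a direction that the rule largely fixes. Crosslinked groups ranged from 0.44 ± 0.17% (SD, n = 2) in RBFOX2_1k to 4.60 ± 0.14% (SD, n = 2) in hnRNPc_5k_noPAGE. In the same lists the moved sites were overlapped more often, in 0.842% and 10.2% of cases. Uncrosslinked lists of hnRNPA1 and RBFOX2 with the gel held 0.203 ± 0.008% (SD, n = 2) and 0.126 ± 0.033% (SD, n = 2). The 4 Background groups, cut from other gel regions of hnRNPc libraries, held at most 0.051 ± 0.011% (SD, n = 2). In none of the 46 lists were 65577 sites (60.5%) overlapped, against 11.1% of the shared peaks.

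noUV_hnRNPc was the group of another antibody that held the most sites. Its replicates 1 and 2 overlapped 7.23% and 7.13%, a mean of 7.18 ± 0.07% (SD, n = 2), whereas the crosslinked hnRNPc_10k lists overlapped 1.46% and 1.57%. The moved sites were overlapped in 6.82% and 6.58% of cases in noUV_hnRNPc and in a mean of 5.84 ± 0.05% (SD, n = 2) in hnRNPc_10k. The uncrosslinked hnRNPc lists thus held about as many sites at their place as 1000 nt away, and the crosslinked lists held fewer at their place. Among all reproducible hnRNPI peaks, noUV_hnRNPc overlapped 16.5% and 14.7%. The lists of both groups are of like length, 299616 and 299307 peaks without crosslinking against 264496 and 267111 with it. The labels give 50000 cells and an RNase dose of 0.005 U for the first, and 10000 cells and 0.001 U for the second. The crosslinked hnRNPc_50k_mediumRNase lists, from 50000 cells at 0.025 U, overlapped 2.21% and 2.73% of the sites. Without the gel, the uncrosslinked hnRNPc lists, at 3.92% and 6.17%, overlapped in range with the crosslinked hnRNPc_50k_noPAGE_RecJ lists, at 3.31% and 4.69%.

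The same rule was applied to each of the other 3 proteins, and the sets are set side by side without a test. It gave 119580 sites of hnRNPA1 only (45.2% of that protein's reproducible peaks), 114632 of hnRNPc only (54.7%) and 26448 of RBFOX2 only (34.4%). The sites of hnRNPI only were the widest, with a median of 82 nt against 68, 65 and 60 nt. The whole hnRNPI list was also the widest: all peaks of the 50k_noPAGE replicate 1 lists had medians of 68, 62, 57 and 59 nt. The sites of hnRNPI only were also the closest together: 32.3% had another within 100 nt, against 14.4% for hnRNPA1, 23.3% for hnRNPc and 29.9% for RBFOX2. The sets differ in size, and the part of set size in this spacing was not tested. In the antibody's own RecJ lists the share of the sites of hnRNPI only, 77.3% and 76.7%, was above the 59.9 to 68.8% of the other 3. In the antibody's own 50k_lowRNase lists they were not set apart, at 59.4% and 53.5% against 63.1% and 61.4% for hnRNPA1 and 53.4% and 50.5% for RBFOX2. For hnRNPc these were 0.779% in the short replicate 1 list and 26.3% in replicate 2.

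**Figure D4:**
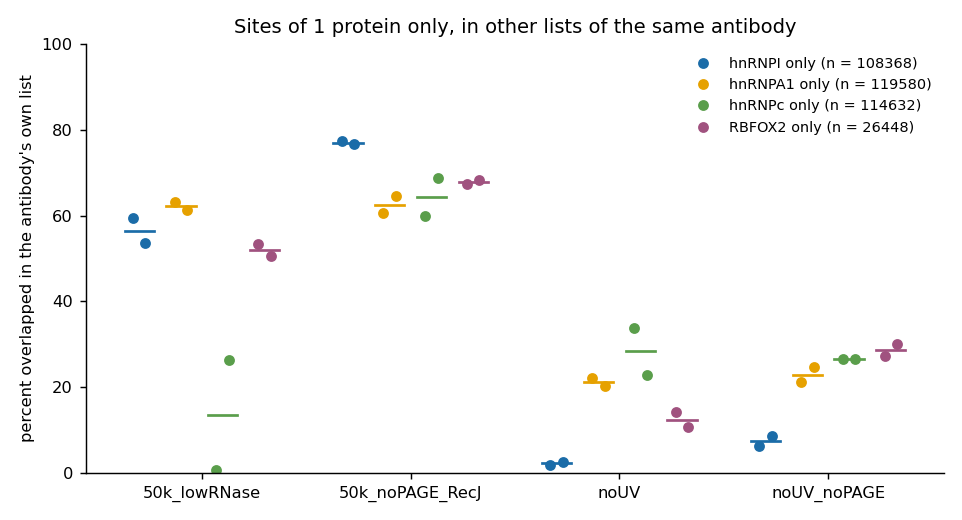
Percent of the sites of 1 protein only that were overlapped in other lists of the same antibody, for 2 libraries (points) and their mean (bars). Without crosslinking, the sites of hnRNPI only have the lowest values both with the gel, at 1.87% and 2.53%, and without it, at 6.27% and 8.50%, and with crosslinking and RecJ they have the highest, at 77.3% and 76.7%.

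Without crosslinking, the sites of hnRNPI only had the lowest overlap of the 4 sets in the antibody's own lists. With the gel the values were 22.2% and 20.3% for hnRNPA1, 33.8% and 22.9% for hnRNPc and 14.1% and 10.7% for RBFOX2, against 1.87% and 2.53% for hnRNPI. Without the gel they were 21.1% to 30.0% for the other 3 and 6.27% and 8.50% for hnRNPI. No library of another protein came as low as an hnRNPI library in either setting. The hnRNPA1 and hnRNPc lists are much longer, at 146915 to 299616 peaks with the gel. The noUV_RBFOX2 lists, with 30170 and 22911 peaks, are of the length of the noUV_hnRNPI lists, with 18690 and 36809. Among sites of 16 to 31 reads the order was the same, with 1.28% and 1.71% for hnRNPI and 13.4% and 9.12% for RBFOX2 with the gel. With the gel, the sites moved by 1000 nt were overlapped in 0.57% and 0.89% of cases for hnRNPI, 4.06% and 3.60% for hnRNPA1, 9.97% and 10.3% for hnRNPc and 4.12% and 3.02% for RBFOX2. The ratio of the overlap at the sites to that of the moved sites was then 3.27 and 2.84 for hnRNPI, 5.46 and 5.64 for hnRNPA1, 3.39 and 2.22 for hnRNPc and 3.43 and 3.53 for RBFOX2. Without the gel it was 3.90 and 3.48 for hnRNPI, 4.99 and 5.37 for hnRNPA1, 3.66 and 2.67 for hnRNPc and 4.25 and 4.21 for RBFOX2. By this ratio, which takes the density of each list into account, the hnRNPI libraries did not stand below those of hnRNPc. In both settings they stood below those of hnRNPA1 and, by less, those of RBFOX2. Each pair of groups holds 2 libraries a side, and the difference was not tested.

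The sites with the most reads are given next, 1 per gene, among the 38824 found in both 50k_lowRNase and both RecJ lists of hnRNPI. The 12 leading entries lie at 10 positions, because 2 positions are listed under a pair of gene identifiers each. The positions are 15 to 336 nt wide. Reads are unscaled numbers from the peak names. A list with no overlapping peak is given as 0 reads.

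The leading site is in ENSG00000229807, at chromosome X 73047347 to 73047361 (hg19) on the minus strand, and is 15 nt wide. It had 24383 and 24648 reads in the replicates of hnRNPI_50k_noPAGE, 10985 and 13861 with the gel and 20761 and 20351 with RecJ. It had 399 and 749 reads in noUV_hnRNPI and 1822 and 2410 in noUV_noPAGE_hnRNPI. It also had 1843 and 1191 reads in noUV_hnRNPc. The crosslinked lists were the highest for this site and the uncrosslinked ones did not reach them.

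The next site lies in ENSG00000245532, at chromosome 11 65195153 to 65195376 on the plus strand, 224 nt wide. It had 1058 and 1067 reads in hnRNPI_50k_noPAGE, 558 and 577 with the gel, and 971 and 925 with RecJ. In noUV_hnRNPI it had 0 and 9 reads, and in noUV_noPAGE_hnRNPI 121 and 167. A site on chromosome 10, at 96363226 to 96363316 on the plus strand, had 845 and 805 reads, then 290 and 285 with the gel and 976 and 745 with RecJ. It had no peak in noUV_hnRNPI and 21 and 40 reads in noUV_noPAGE_hnRNPI. Both sites were high in all crosslinked lists and low without crosslinking.

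The site at chromosome 16 58054322 to 58054460 on the plus strand went the other way in 1 setting. It had 822 and 773 reads in hnRNPI_50k_noPAGE, 136 and 331 with the gel and 562 and 604 with RecJ. In noUV_noPAGE_hnRNPI it had 2566 and 4091 reads, above all its crosslinked values, and in noUV_hnRNPI 45 and 87. It was the only 1 of the 10 positions with more reads in both noUV_noPAGE_hnRNPI lists than in hnRNPI_50k_noPAGE replicate 1, on unscaled reads. The nearest peak of another protein lay 6 nt away, and no list of the 46 held a peak on it.

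The site at chromosome 7 27208388 to 27208482 on the minus strand stood at the other end. It had 706 and 661 reads in hnRNPI_50k_noPAGE, 415 and 446 with the gel and 655 and 400 with RecJ. It was the only 1 of the 10 positions with no peak in any uncrosslinked hnRNPI list. The other 9 had a peak in both noUV_noPAGE_hnRNPI lists, and 5 of the 10 had 1 in both noUV_hnRNPI lists.

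The remaining 5 positions had 637 to 793 reads in hnRNPI_50k_noPAGE replicate 1. On chromosome 1, the site at 151669004 to 151669137 on the plus strand had 787 and 758 reads without the gel and 861 and 728 with RecJ, but 45 and 55 with the gel, the lowest of the 10 positions there. On chromosome 18, the site at 37091733 to 37092068 on the minus strand had 793 and 739 reads and, at 336 nt, was the widest of the 10. It lies in ENSG00000267374, which holds 163 sites. It had 584 and 717 reads in noUV_noPAGE_hnRNPI, within the 550 to 793 of its crosslinked lists without the gel. The others lie on chromosome 4 at 20376165 to 20376345, on chromosome 1 at 167978831 to 167978962 and on chromosome 8 at 109233173 to 109233335, with 76 and 114, 325 and 423, and 40 and 16 reads in noUV_noPAGE_hnRNPI.

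The leading site and the longest run both lie in ENSG00000229807. Its 108 sites lie on the minus strand of chromosome X between 73046416 and 73059121 and have a median width of 9 nt. All 108 had 256 reads or more, and 59 were at most 10 nt wide. Of them, 78 make up the longest run, 825 nt from 73046995 to 73047819, in which the sites touch or nearly touch. A second run of 9 sites lies at 73048903 to 73049066, with up to 4227 reads, and a run of 8 sites at 73050901 to 73051021, with up to 2011.

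**Figure D5:**
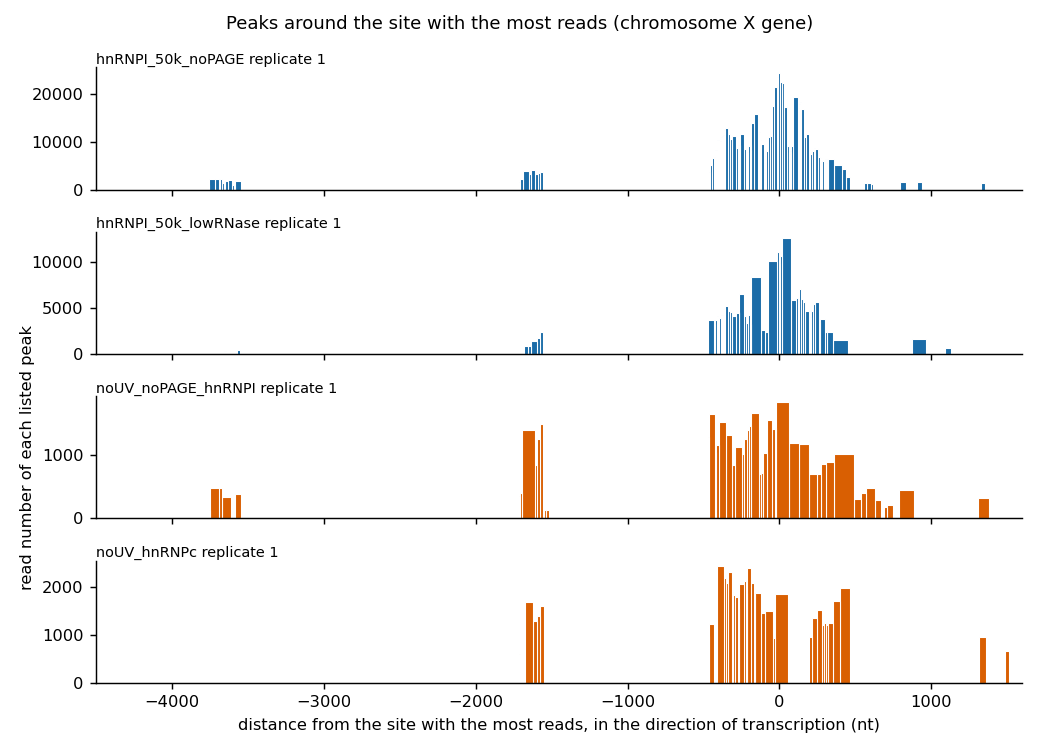
Read number of each listed peak around the leading site of ENSG00000229807, against the distance from that site in nt in the direction of transcription, for 4 replicate 1 lists on their own scales (blue crosslinked, orange not crosslinked). All 4 lists show the stretch around the leading site and a shorter one upstream of it, with up to 24383 reads in hnRNPI_50k_noPAGE and 1822 in noUV_noPAGE_hnRNPI.

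The sites of this gene were found again in lists with and without crosslinking. Both RecJ lists overlapped all 108 (100%), and the hnRNPI_50k_lowRNase lists 84.3% and 79.6%. Without crosslinking, noUV_hnRNPI overlapped 87.0% and 88.0%, against 1.87% and 2.53% of all sites. The noUV_noPAGE_hnRNPI lists overlapped 92.6% in both. Lists of other antibodies without crosslinking also held many of these sites. noUV_hnRNPc overlapped 74 of the 108 in each replicate, with peaks of up to 2430 and 2167 reads on the longest run. noUV_noPAGE_hnRNPc overlapped 76 and 87, and noUV_noPAGE_RBFOX2 overlapped 63 in each replicate. In noUV_hnRNPA1 it was 21 and 23 sites, and in noUV_RBFOX2 29 and 30. The crosslinked hnRNPc_10k lists overlapped none of them, and the RBFOX2_10k lists 10 and 14. With this gene left out, noUV_hnRNPI overlapped 1.79% and 2.44% of the remaining sites and noUV_noPAGE_hnRNPI 6.19% and 8.42%.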

How the data were processed

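The samples are 68 TLC-CLIP libraries of HEK293T cells in 34 groups of 2. Each has 1 list without a header, made by the authors per library: position, a name, a deposited p-value per peak (at most 0.00755, no adjustment stated), strand and an inner interval. Per the submitters' processing notes, bcl2fastq, STAR 2.7.3a, UMI-tools 1.0.1 and build hg19 were used. CLIPper as peak caller is known from file names alone. How reads were trimmed, and which annotation was used, is not stated here. The last number of the name was read as reads and was never below 4; its meaning is not stated. Depth is unknown, so no counting interval was computed.

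Overlaps were at least 1 nt on the same strand, computed with Python 3.11.15, numpy 2.4.6 and pandas 2.3.3, and checked on simulated intervals. All lists were used, and the titles gave the groups; the labels give 50000 cells for lists titled 5k and 500. Members, lists and rules were chosen with earlier results of these data known. Named sites are the 12 with the highest smaller read number of both defining replicates, 1 per gene, among those in both 50k_lowRNase and both RecJ lists. Named genes are the 8 with the most sites and the 4 highest and 4 lowest by share among genes with 100 or more reproducible peaks, of which a few are printed. No test was made, since groups hold 2 libraries and the members were chosen on the data. Motifs, introns and exons were not analysed here, because no hg19 sequence or annotation was used.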

Additional observations from a re-analysis of the deposited data

Results flagged for a closer look

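The change in overlap between crosslinked and uncrosslinked lists with the gel went opposite ways for different antibodies, in lists that the rule did not use. The rule takes sites with crosslinked hnRNPI peaks and without crosslinked peaks of the other proteins, so the crosslinked values, and with them the size of the gaps, are largely set by the choice of sites. For hnRNPc both uncrosslinked lists (7.23% and 7.13% of the sites) lay above both hnRNPc_10k lists (1.46% and 1.57%), a difference of 5.66 percentage points. The hnRNPc_50k_mediumRNase lists were nearer to the uncrosslinked ones, at 2.21% and 2.73%. For hnRNPI the uncrosslinked lists (1.87% and 2.53%) lay below the hnRNPI_50k_lowRNase lists (59.4% and 53.5%), a difference of -54.3 points. For hnRNPA1 the values were 0.209% and 0.197% against 1.35% and 1.63% in hnRNPA1_50k_mediumRNase. For RBFOX2 they were 0.149% and 0.103% against 0.955% and 1.28% in RBFOX2_10k. The gap between hnRNPc and hnRNPI was 59.9 points, that between hnRNPc and hnRNPA1 6.95 points and that between hnRNPc and RBFOX2 6.65 points. The difference was not tested, and the crosslinked groups differ in RNase dose and cell number. Sites moved by 1000 nt were overlapped in 6.82% and 6.58% of cases in noUV_hnRNPc, near the value at the sites, and in a mean of 5.84% in hnRNPc_10k. In noUV_hnRNPA1 and noUV_RBFOX2 the moved sites were overlapped in a mean of 2.47% and 0.271% of cases, above the values at the sites. Without the gel the hnRNPc lists overlapped in range, with 3.92% and 6.17% in noUV_noPAGE_hnRNPc, 3.31% and 4.69% in hnRNPc_50k_noPAGE_RecJ and 4.50% and 4.71% in hnRNPc_5k_noPAGE.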

How the results depend on the processing

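Each result was recomputed under 7 planned settings, 2 settings added after seeing the data, and with 1 list left out at a time. The number of sites stayed within 1.5 times of 108368 except without hnRNPI_50k_noPAGE replicate 1 (189783) or replicate 2 (195651), where no second replicate has to agree. The lowest number was 74894, with exclusion by all crosslinked lists of the other proteins. Over the lists left out it ranged from 108371 to 195651. The median width ranged from 67 to 82 nt over the lists left out. The share of sites with another within 100 nt ranged from 30.0 to 33.1%, the overlap in hnRNPI_50k_lowRNase from 38.8 to 59.4%, in hnRNPI_50k_noPAGE_RecJ from 54.2 to 77.3%, in noUV_hnRNPI from 1.42 to 2.53% and in noUV_noPAGE_hnRNPI from 4.98 to 8.50%. The lowest of these overlaps came without a defining hnRNPI replicate.

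Requiring at least 50% of the peak to be overlapped gave a median width of 90 nt, 35.4% of sites with another within 100 nt, and overlaps of 46.5% (lowRNase), 73.0% (RecJ), 1.39% (noUV) and 5.40% (noUV_noPAGE). Using peaks with p below 1e-05 gave 93 nt, 45.9% and, with RecJ, 82.4%. Replicate 2 as the reference gave 81 nt and 32.1%. Exclusion by all crosslinked lists of the other proteins gave 81 nt, 28.4% and, with RecJ, 76.0%. Exclusion by the 50k_noPAGE lists alone gave 83 nt and 35.0%. Allowing no peak of the other proteins within 50 nt gave 31.6% and, with RecJ, 76.2%. Merging peaks under 30 nt apart gave 84 nt, 17.6%, and overlaps of 74.1% (RecJ) and 1.69% (noUV). Counting the same position once, an added setting, gave 32.1% within 100 nt. Leaving out ENSG00000229807, the other added setting, gave 108260 sites. It moved no width, spacing or overlap result by more than the SD between replicates. For width and spacing that SD is between the 2 choices of reference replicate. In every setting the order of the 4 groups by overlap was RecJ, lowRNase, noUV_noPAGE, noUV. No paired analysis was possible because the results come from no test, so there is no fit to which a replicate block could be added. The unknown depth limits what a missing peak can show.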
